A study of Mus musculus with 8 samples.

Results

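The 10 genes described here encode the transcription factors ATF4, CHOP (*Ddit3*), ATF3, ATF5 and C/EBP beta (*Cebpb*), and the stress-induced proteins encoded by *Trib3*, *Ppp1r15a*, *Chac1*, *Sesn2* and *Ddit4*. They were chosen by symbol as a list of PERK-ATF4-CHOP stress response genes and make up 10 of the 23337 genes in the count files. All 10 passed the filter on low counts and were among the 14328 genes tested. RNA was sequenced from the liver of C57BL/6 mice aged 12 weeks, of either the WT genotype or the genotype labelled Hrd1-/-, written HRD1Alb below. In HRD1Alb mice, a Cre transgene driven by the albumin promoter, which is active in hepatocytes, deletes a floxed *HRD1* gene. The study states that the deletion begins early in liver development. Which other liver cells keep the gene was not tested. Mice were either fasted overnight, or fasted overnight and given food again for 4 h, before the liver was collected. This gave 4 groups (WT fasted, HRD1Alb fasted, WT refed and HRD1Alb refed) of 2 libraries each, 8 in all. The labels do not say that each library came from a separate mouse, so the p-values measure the spread between these libraries only.

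HRD1, whose gene is listed under the symbol *Syvn1*, is an E3 ubiquitin ligase in the membrane of the endoplasmic reticulum that marks misfolded proteins for degradation. When misfolded proteins build up, the kinase PERK phosphorylates the translation factor eIF2alpha, which lowers protein synthesis in general but raises translation of the *Atf4* mRNA. ATF4 then induces genes of amino acid supply and redox balance together with *Ddit3*, and other eIF2alpha kinases (GCN2, PKR and HRI) feed into the same route when amino acids are scarce or other stresses occur. Because ATF4 is controlled to a large extent at the level of translation, its mRNA level alone does not give the level of the protein.

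Total counts per library ranged from 40210576 to 49117080, and 3 counts, taken as the floor of detection, equalled 0.0508 to 0.0788 normalised CPM (CPM, the counts scaled to library size, after TMM normalisation). All 10 genes were above this floor in every library. The deleted gene, *Syvn1*, stood at 110.7 and 99.8 normalised CPM in WT fasted, 32.6 and 31.5 in HRD1Alb fasted, 637 and 305 in WT refed, and 453 and 132 in the libraries labelled HRD1Alb refed. The fasted groups did not overlap, but the library labelled HRD1Alb refed replicate 1 lay above WT refed replicate 2, so its *Syvn1* level goes against its label. The counts cover the whole gene, including exons that Cre may leave in place, so the level does not show by itself whether the deletion took place. At *Psat1* and at the summed Kupffer cell markers described below, HRD1Alb refed replicate 1 lay above every WT library. It stood at 65.0 and 221 normalised CPM, against at most 1.04 and 106.4 in WT. Whether its label is right was not tested. The log2 fold change of *Syvn1* between genotypes was -1.72 in fasted liver (standard error 0.56, adjusted p = 0.17, edgeR) and -0.69 in refed liver (standard error 0.55, adjusted p = 0.391). The library labelled HRD1Alb refed replicate 2 also stood apart, because its log2 CPM relative to the mean of all libraries fell with exonic length (Spearman's rho across genes -0.49, against 0.0079 to 0.243 in the other 7 libraries, a description across genes that are not independent). In this group, 22.4% of tested genes differed at least 2-fold between the replicates, against 2.96 to 7.96% in the other groups. For the 10 genes, and for some of the other results, values in refed HRD1Alb liver are therefore also given without each of these libraries.

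Defining markers of hepatocytes were abundant in every library, with summed levels of 155500 and 174000 normalised CPM in WT fasted, 105900 and 105600 in HRD1Alb fasted, 130900 and 140200 in WT refed, and 80750 and 126100 in HRD1Alb refed. The sum was lower in both HRD1Alb libraries at either state. The median log2 fold change of these 8 markers was -0.78 in fasted liver, with none called by edgeR (5 lower unadjusted, 3 by DESeq2, 0 by limma), and -0.40 in refed liver, with 1 called lower (3 by DESeq2). Markers of Kupffer cells and macrophages moved the other way. Of all tested genes, 7.09% were called higher in refed and 0.921% in fasted HRD1Alb liver. All 7 markers of Kupffer cells and macrophages were higher in HRD1Alb than in WT refed liver, and 2 of the 7 in fasted liver. Their summed level was 92.5 to 106.4 normalised CPM in the 4 WT libraries and 221 to 465.9 in the 4 HRD1Alb libraries. None of these markers was at 0 in any library. Markers of stellate cells (3 of 7) and of dividing cells (2 of 5) were also called higher in refed HRD1Alb liver, with summed levels of 163.5 to 351.8 normalised CPM in WT and 351.3 to 484.9 in HRD1Alb libraries for the former and of 4.07 to 5.67 and 9.28 to 17.3 for the latter. Of 4 tested neutrophil markers 1 was called higher in refed HRD1Alb liver, with sums of 2.03 to 3.86 in WT and 3.91 to 10.8 in HRD1Alb libraries and *Mpo* at 0 in 5 of the 8. None of the endothelial, cholangiocyte or lymphocyte markers was called in either genotype comparison by edgeR. At an unadjusted p under 0.05, 2 cholangiocyte markers were lower in fasted and 1 higher in refed liver. Of the lymphocyte markers, 1 was higher in fasted and 2 in refed liver, with 1 called there by DESeq2. In bulk RNA, more cells of a type and more RNA per cell cannot be told apart, and the part of these cells in the results below was not tested.

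ATF4 and CHOP bind composite C/EBP-ATF sites, whose core is written TGATGNAA, or TTNCATCA on the other strand. Both strands of the window from 250 bases before to 50 bases after the annotated start were searched (RefSeq, GRCm38.p6). Of the 10 genes, 3 held a match (30%), namely *Atf3*, *Chac1* and *Trib3*, against 300 of 10136 tested genes with a window (2.96%). A match is a description of the letters and not evidence of binding. No match says only that these letters are absent from this window, which was so for *Ddit3*, *Atf4*, *Atf5*, *Ppp1r15a*, *Sesn2*, *Ddit4* and *Cebpb*. The surrounding sequences are given because these genes were among those that were higher in refed HRD1Alb liver, each read 5′ to 3′ on the strand of its gene with the match in capitals. They lie at chr1:191183396-191183483 on the minus strand for *Atf3*, with the match starting 110 bases before the start, at chr2:119351009-119351096 on the plus strand for *Chac1*, 193 bases before it, and at chr2:152344028-152344057 on the minus strand for *Trib3*, 15 bases after it.
Atf3: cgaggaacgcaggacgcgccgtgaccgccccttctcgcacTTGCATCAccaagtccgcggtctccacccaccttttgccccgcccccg
Chac1: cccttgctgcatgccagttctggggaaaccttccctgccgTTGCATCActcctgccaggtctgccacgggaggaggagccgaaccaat
Trib3: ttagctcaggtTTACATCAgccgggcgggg

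Of a list of 20 other known ATF4 or CHOP targets, 15 had a window and 6 of them held a match (40%). *Psat1*, *Phgdh*, *Mthfd2*, *Slc3a2*, *Slc7a1* and *Gdf15* had a window without a match and were also higher in refed HRD1Alb liver. The 5 targets with a match that were higher there are printed below in the same way, and *Vldlr* is the other with a match. They lie at chr6:7693214-7693243 (minus strand) for *Asns*, chr3:50443642-50443690 (minus) for *Slc7a11*, which holds 2 matches, chr7:126625562-126625591 (minus) for *Nupr1*, chr7:45615611-45615640 (minus) for *Fgf21*, and chr14:55540152-55540181 (plus) for *Pck2*. The match reads TTGCATCA in *Atf3*, *Chac1*, *Nupr1* and *Fgf21*, TTACATCA in *Trib3* and *Pck2*, and TGATGAAA in *Asns*.
Asns: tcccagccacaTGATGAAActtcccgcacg
Slc7a11: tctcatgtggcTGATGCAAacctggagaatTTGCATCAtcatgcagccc
Nupr1: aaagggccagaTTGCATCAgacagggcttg
Fgf21: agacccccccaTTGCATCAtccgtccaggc
Pck2: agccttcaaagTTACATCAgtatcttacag

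*Atf4* (chromosome 15, 80255184 to 80257541, GRCm38) encodes the central transcription factor of the response. Its mRNA stood at 118.5 and 124 normalised CPM in WT fasted, 119.6 and 154 in HRD1Alb fasted, 136 and 182 in WT refed, and 243 and 269 in HRD1Alb refed. Both HRD1Alb refed libraries lay above all others, and the fasted groups overlapped.

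*Ddit3* (chromosome 10, 127290774 to 127296288) encodes CHOP, a C/EBP-family factor of prolonged stress and cell death. Its levels were 6.66 and 5.62 normalised CPM in WT fasted, 15.5 and 14.8 in HRD1Alb fasted, 16.1 and 11.3 in WT refed, and 250.6 and 241.5 in HRD1Alb refed. The HRD1Alb refed libraries, which lay close together, were far above the other 6, and WT fasted was the lowest group. *Ddit3* shares 105 exonic bases (6.13% of its exonic length) with another annotated gene of the same symbol on the same strand. On the opposite strand it shares 68 (3.97%) with *Mars* and 13 (0.759%) with *Gm4189*. Whether reads were counted by strand is not given in the sources used here. *Mars* did not follow *Ddit3*, with 69.1 and 63.3 normalised CPM in WT refed and 51.2 and 63.7 in HRD1Alb refed.

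*Trib3* (chromosome 2, 152337422 to 152344032) encodes a pseudokinase that ATF4 and CHOP induce and that in turn restrains them and the kinase AKT. It stood at 18.9 and 22.1 normalised CPM in WT fasted, 45.5 and 42.4 in HRD1Alb fasted, 6.52 and 7.85 in WT refed, and 241 and 76.7 in HRD1Alb refed. The groups formed 4 separate levels, with WT refed lowest and HRD1Alb refed highest, but the HRD1Alb refed libraries were 3.15-fold apart.

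Among the other bZIP factors, *Atf3* (chromosome 1, 191170296 to 191218039), an early stress-induced repressor and activator, stood at 0.499 and 3.07 normalised CPM in WT fasted and at 9.56 and 12.9 in HRD1Alb fasted. In refed liver it was at 1.51 and 1.60 in WT and at 79.7 and 31.7 in HRD1Alb. HRD1Alb libraries were above WT libraries at both feeding states, and the replicates were far apart in WT fasted and in HRD1Alb refed. *Atf5* (chromosome 7, 44812256 to 44816658), a factor translated by the same eIF2alpha-dependent means as ATF4, was the most abundant of the 10 genes. It stood at 842 and 1166 normalised CPM in WT fasted, 787 and 798 in HRD1Alb fasted, 723 and 589 in WT refed, and 1124 and 961 in HRD1Alb refed. Its groups differed little, HRD1Alb being below WT in fasted liver and above it in refed liver. *Atf5* shares 82 exonic bases (4.11% of its length) with *Nup62*, and as many with *Il4i1*, on the opposite strand. *Cebpb* (chromosome 2, 167688915 to 167690418) encodes C/EBP beta, a partner of ATF4 and CHOP that also serves in gluconeogenesis and the acute-phase response. Its levels were 53.7 and 54.5 normalised CPM in WT fasted, 68.0 and 91.9 in HRD1Alb fasted, 30.8 and 25.8 in WT refed, and 54.2 and 78.1 in HRD1Alb refed. WT refed was the lowest group, and the HRD1Alb groups overlapped each other. *Cebpb* shares 312 exonic bases (20.7% of its length) with *Tmem189* on the opposite strand, which moved the other way in refed liver (log2 fold change -0.71, adjusted p = 0.0832, edgeR).

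*Ppp1r15a* (chromosome 7, 45522916 to 45526268) encodes GADD34, which directs a phosphatase to eIF2alpha and so ends the response. It stood at 15.9 and 22.9 normalised CPM in WT fasted, 14.9 and 20.5 in HRD1Alb fasted, 11.04 and 13.3 in WT refed, and 22.2 and 13.5 in HRD1Alb refed. The highest library of WT refed was only just below the lowest of HRD1Alb refed. *Chac1* (chromosome 2, 119351229 to 119354381), encodes a glutathione-degrading enzyme induced by ATF4. It stood at 2.62 and 3.99 normalised CPM in WT fasted, 1.29 and 2.23 in HRD1Alb fasted, 0.469 and 0.683 in WT refed, and 2.44 and 1.67 in HRD1Alb refed. WT fasted was the highest group and WT refed the lowest, with the HRD1Alb groups overlapping between them.

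*Sesn2* (chromosome 4, 132492032 to 132510501) and *Ddit4* (chromosome 10, 59949669 to 59951834) encode sestrin 2 and REDD1, stress-induced inhibitors of the growth kinase complex mTORC1. *Sesn2* stood at 18.8 and 14.9 normalised CPM in WT fasted, 14.6 and 15.6 in HRD1Alb fasted, 3.88 and 2.89 in WT refed, and 13.4 and 2.81 in HRD1Alb refed. All 4 fasted libraries were above the refed ones, and the HRD1Alb refed libraries fell on either side of the WT refed ones. *Ddit4* stood at 17.1 and 5.60 normalised CPM in WT fasted, 28.7 in both HRD1Alb fasted libraries, 9.24 and 11.5 in WT refed, and 46.4 and 24.4 in HRD1Alb refed. Every HRD1Alb library was above every WT library.

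**Figure D1:**
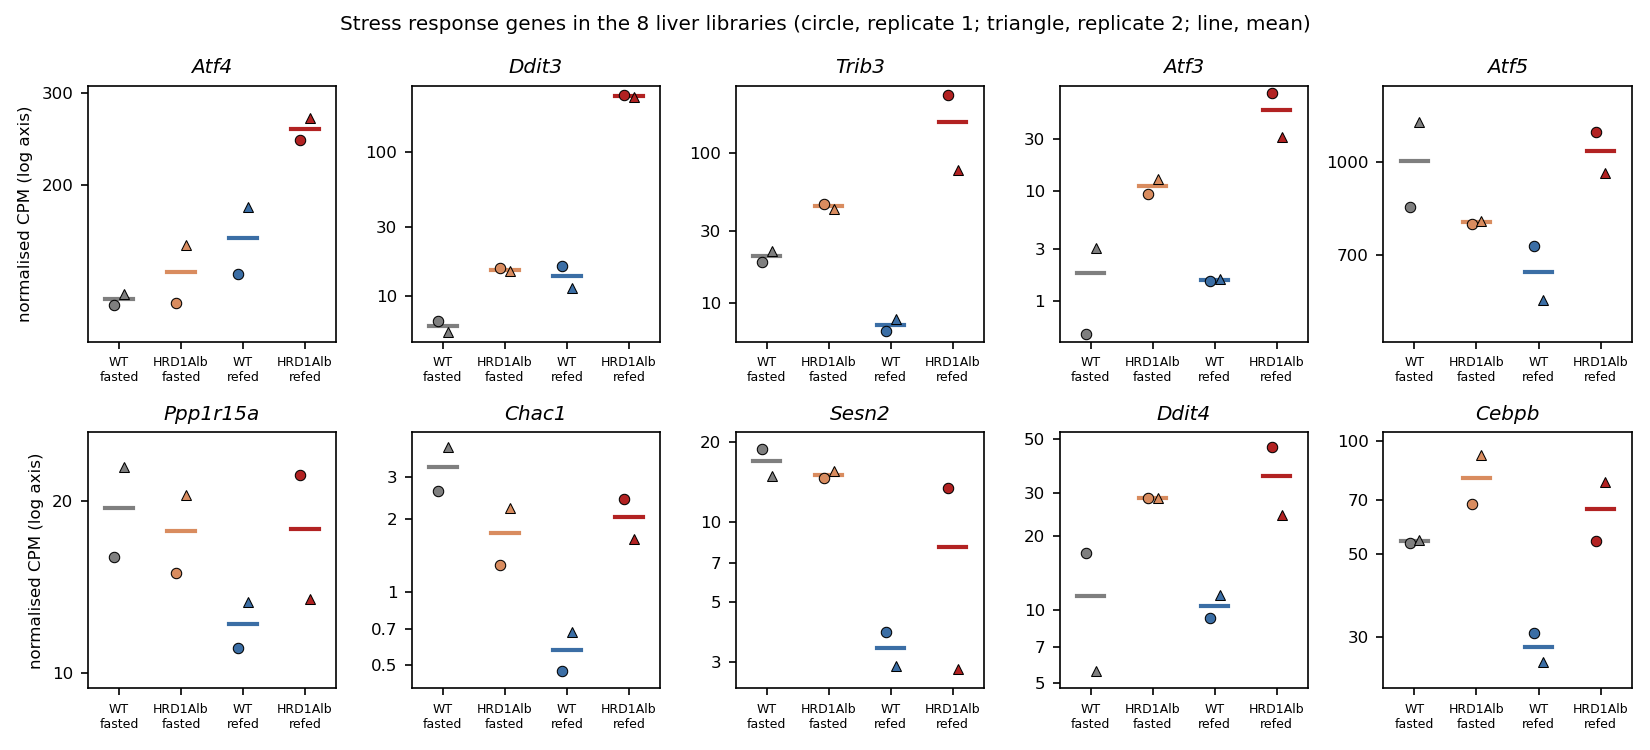
Normalised CPM (log axis, with its own range in each panel) of the 10 genes in the 8 libraries by group, with circles for replicate 1, triangles for replicate 2 and a line at the mean of the 2. *Ddit3* was at 250.6 and 241.5 in HRD1Alb refed liver and at most 16.1 elsewhere, and the HRD1Alb refed replicates of *Trib3*, *Atf3* and *Sesn2* were 3.15, 2.52 and 4.77-fold apart.

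Per length of the transcript, in RPKM (normalised CPM per kilobase of exon), *Atf5* was the highest of the 10 genes in every group and lay between 295 and 585 RPKM over the 8 libraries. *Atf4* came next in every group other than HRD1Alb refed. *Ddit3* had rank 8 in WT fasted (3.89 and 3.28 RPKM), rank 6 in HRD1Alb fasted (9.05 and 8.64) and rank 4 in WT refed (9.38 and 6.61). In HRD1Alb refed it had rank 2, with levels of 146 and 141 RPKM above those of *Atf4* at 103 and 114. Neighbours in the order that overlapped were *Ppp1r15a*, *Ddit4* and *Sesn2* in WT fasted, *Atf4* and *Cebpb* and also *Ppp1r15a*, *Atf3* and *Sesn2* in HRD1Alb fasted, and *Atf4*, *Trib3*, *Cebpb*, *Atf3* and *Ddit4* as well as *Sesn2* and *Chac1* in HRD1Alb refed.

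The comparison of the genotypes in refed liver asks which of these genes change with HRD1 deletion after a meal. In refed liver, 5 of the 10 genes were higher in the libraries labelled HRD1Alb than in WT, namely *Ddit3*, *Trib3*, *Atf3*, *Chac1* and *Cebpb*, and none was called lower (edgeR quasi-likelihood test, Benjamini-Hochberg adjusted p under 0.05 over all tested genes). Of all tested genes, 7.09% were called higher and 4.84% lower, 11.9% in all. At an unadjusted p under 0.05, 8 of the 10 genes were higher and none lower, among 4775 of the 14328 tested genes in either direction. DESeq2 called 8 of the 10 higher and none lower, with 3117 genes in all, and limma 5 and none, with 1734 in all. *Ddit3* was at 246 ± 6.43 normalised CPM in HRD1Alb and 13.7 ± 3.36 in WT (SD, n = 2 each), 18.0-fold higher (log2 fold change 4.17, standard error 0.23, adjusted p = 0.00126). *Trib3* was at 159 ± 116 against 7.19 ± 0.942 (log2 fold change 4.47, standard error 0.52, adjusted p = 0.00895), and *Atf3* at 55.7 ± 33.9 against 1.55 ± 0.0679 (5.16, standard error 0.82, adjusted p = 0.0152). The changes of the other called genes were smaller. *Chac1* was at 2.05 against 0.576 on average (log2 fold change 1.83, standard error 0.43, adjusted p = 0.039) and *Cebpb* at 66.1 against 28.3 (1.22, standard error 0.24, adjusted p = 0.0249).

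The remaining 5 genes had positive log2 fold changes that did not pass the test. These were 1.77 for *Ddit4* (95% interval 0.58 to 2.97, adjusted p = 0.0642, edgeR), 1.26 for *Sesn2* (-0.17 to 2.70, adjusted p = 0.189), 0.69 for *Atf4* (0.21 to 1.17, adjusted p = 0.0676), 0.67 for *Atf5* (0.17 to 1.17, adjusted p = 0.0805) and 0.55 for *Ppp1r15a* (-0.17 to 1.27, adjusted p = 0.24). The upper bounds of *Ddit4*, *Sesn2* and *Ppp1r15a* exceed the change of *Cebpb*, and those of *Atf4* and *Atf5* do not. In 9 of the 10 genes, *Sesn2* being the exception, both HRD1Alb libraries were above both WT libraries, which was also so for 30.7% of all tested genes, and no gene had both below (30.1% of all tested genes). The median log2 fold change was 1.52 over the 10 genes and 0.04 over all tested genes.

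Without the library labelled HRD1Alb refed replicate 1, whose *Syvn1* level goes against its label, 6 of the 10 genes were called higher, the 5 above and *Atf4*, while 7705 of 14590 tested genes were called in either direction. *Ddit3* then had a log2 fold change of 4.13, *Trib3* of 3.41 and *Atf3* of 4.34, and that of *Sesn2* turned to -0.28 (adjusted p = 0.362, edgeR). Without replicate 2, 9 genes were called, all but *Atf4*, with 3466 of 14642 genes in all, and *Ddit3*, *Trib3* and *Atf3* were at 4.19, 5.07 and 5.67. Leaving out either WT refed library left *Ddit3* as the 1 called gene, and a fit of the 4 refed libraries alone called none of the 10 and none of 13835 genes, with an adjusted p of 0.0553 for *Ddit3*. An exact permutation test of 2 libraries against 2 cannot give a p below 0.333.

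**Figure D2:**
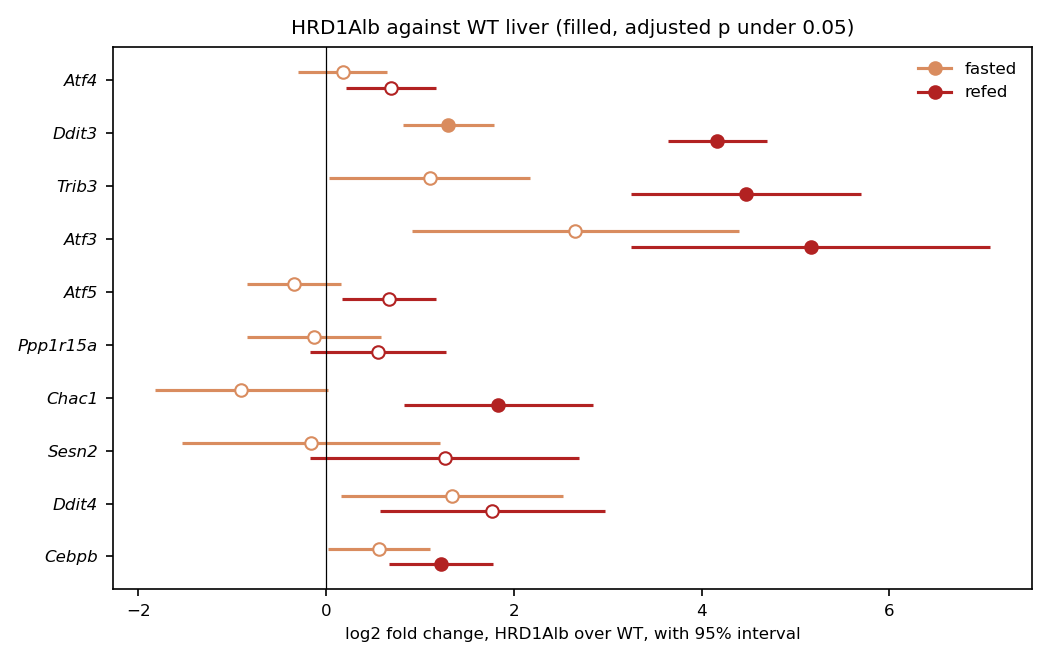
Log2 fold change of HRD1Alb over WT liver (x axis) with its 95% interval for each of the 10 genes, in fasted (orange) and refed (red) liver, with filled points for an adjusted p under 0.05. In refed liver all 10 points lie above 0 and 5 are filled, and in fasted liver 6 lie above 0 and that of *Ddit3*, at 1.30, is filled.

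The HRD1Alb refed libraries gave unlike sizes for several of these genes, and gene length moved with the difference between them. Over 14177 tested genes with a length, longer genes had lower log2 ratios of replicate 2 over replicate 1 (Spearman's rho -0.509). With the tested genes split by length into 10 bins, the bin of *Trib3* and *Atf3* had a median ratio of 0.47 on the log2 scale, whereas *Trib3* was at -1.65 and *Atf3* at -1.33. *Sesn2* was at -2.24, against a median of 0.07 in its own bin. *Ddit3* was at -0.05, *Atf4* at 0.14 and *Cebpb* at 0.53. Of the 10 genes, *Atf4* and *Cebpb* lay between the quartiles of their bins and the other 8 below. After correction for transcript length in each library, HRD1Alb over WT in refed liver came to 3.81 on the log2 scale for *Ddit3*, 4.29 for *Trib3* and 4.97 for *Atf3*, all still called, and *Chac1* no longer passed (1.52, adjusted p = 0.0766, edgeR). That of *Cebpb* was 0.77 and remained called (adjusted p = 0.0297).

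**Figure D3:**
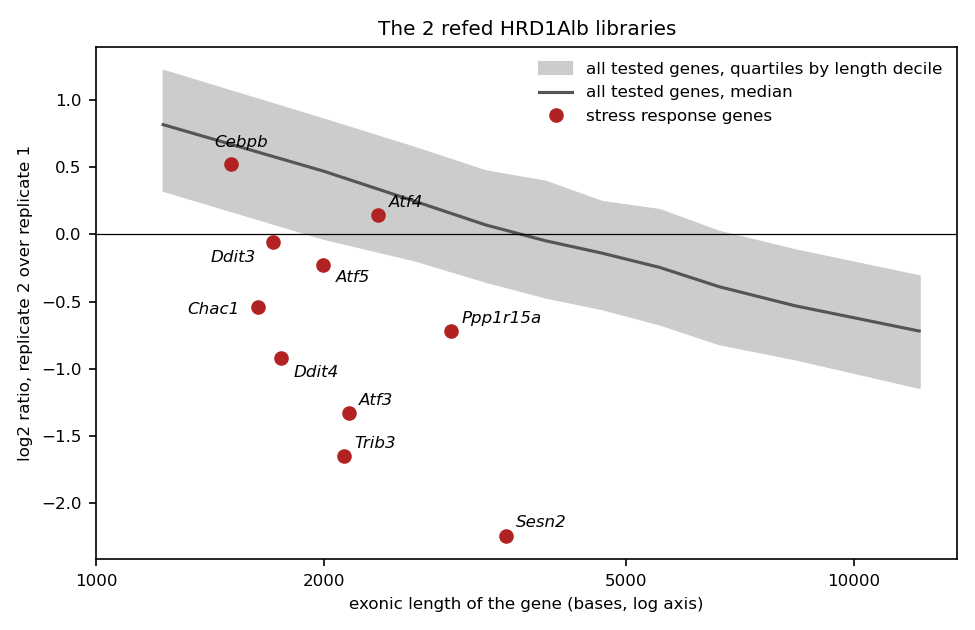
Log2 ratio of HRD1Alb refed replicate 2 to replicate 1 (y axis) against exonic length in bases (x axis, log axis), for the 10 genes (points) and for all tested genes in 10 bins of length (line, median, and band, quartiles). The median of all genes falls from 0.82 in the bin of shortest genes to -0.72 in that of the longest, and *Sesn2*, *Trib3* and *Atf3* lie lowest below the band, at -2.24, -1.65 and -1.33.

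In fasted liver, *Ddit3* was the 1 gene of the 10 called higher in HRD1Alb than in WT, at 15.2 ± 0.502 against 6.14 ± 0.734 normalised CPM (SD, n = 2 each; log2 fold change 1.30, standard error 0.21, adjusted p = 0.0395, edgeR). None was called lower. Of all tested genes, 0.921% were called higher and 0.433% lower, 1.35% in all. At an unadjusted p under 0.05, 5 of the 10 genes were higher and none lower, among 2630 of the 14328 tested genes in either direction. DESeq2 called 2 of the 10 higher and none lower, with 1066 genes in all, and limma 1 and none, with 260 in all. *Atf3*, *Ddit4*, *Trib3* and *Cebpb* had log2 fold changes of 2.65 (95% interval 0.91 to 4.39), 1.34 (0.16 to 2.53), 1.10 (0.03 to 2.17) and 0.56 (0.02 to 1.11), with adjusted p of 0.124, 0.218, 0.259 and 0.258. The WT fasted libraries set the size of the first 2, since *Atf3* came to 1.87 without WT fasted replicate 1 and 4.52 without replicate 2, and *Ddit4* to 2.36 and 0.78, none of them called. *Atf4* was at 0.18 (-0.30 to 0.65), *Sesn2* at -0.16 (-1.54 to 1.21), *Ppp1r15a* at -0.13 (-0.85 to 0.59), *Atf5* at -0.34 (-0.84 to 0.16) and *Chac1* at -0.90 (-1.83 to 0.02).

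The HRD1Alb libraries did not overlap with WT in 5 genes that were higher and 2 that were lower in fasted liver, against 30.6% and 34.2% of all tested genes. The median log2 fold change was 0.37 over the 10 genes and -0.02 over all tested genes. Without either library labelled HRD1Alb refed, neither of which enters this contrast, *Ddit3*, *Trib3*, *Atf3* and *Cebpb* were called higher, along with 3159 of 14590 and 3118 of 14642 genes in either direction, and a fit of the 4 fasted libraries alone called *Ddit3* (1.34, adjusted p = 0.0117, edgeR) and *Trib3* (1.14, adjusted p = 0.0105), with 2033 of 13945 genes in all. Without any 1 of the other 6 libraries none of the 10 and 0 to 23 of all tested genes were called, while the log2 fold change of *Ddit3* stayed between 1.22 and 1.43.

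The comparison of refed with fasted WT liver shows how these genes respond to a meal when HRD1 is present. *Ddit3* was higher after refeeding, at 13.7 ± 3.36 against 6.14 ± 0.734 normalised CPM (SD, n = 2 each; log2 fold change 1.16, standard error 0.21, adjusted p = 0.0379, edgeR). *Chac1* was lower, at 0.576 ± 0.151 against 3.30 ± 0.969 (log2 fold change -2.52, standard error 0.43, adjusted p = 0.0361). Of all tested genes, 1.2% were called higher and 1.41% lower, 2.61% in all. None of the other 8 genes passed the test, and 7 of them had negative log2 fold changes. *Sesn2* was at -2.32 (95% interval -3.79 to -0.85, adjusted p = 0.119), *Trib3* at -1.51 (-2.61 to -0.41, adjusted p = 0.163), *Cebpb* at -0.94 (-1.49 to -0.39, adjusted p = 0.0978), *Ppp1r15a* at -0.67, *Atf5* at -0.61, *Atf3* at -0.20 and *Ddit4* at -0.13, while *Atf4* was at 0.39 (-0.09 to 0.86).

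The WT groups did not overlap in 2 genes that were higher and 6 that were lower after refeeding, against 30.8% and 29.6% of all tested genes. The median log2 fold change was -0.64 over the 10 genes, against a value of 0.00132 over all of those tested. Leaving out any 1 of the 6 libraries other than those labelled HRD1Alb refed ended both calls, and leaving out either of the latter, or fitting the WT libraries alone, gave 5 calls, 1 higher and 4 lower. Those fits called 2508 of 14590, 2493 of 14642 and 1882 of 13406 genes in all, and the fits that ended both calls 0 to 31.

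In HRD1Alb liver, *Ddit3*, *Atf4* and *Trib3* were higher after refeeding, with both libraries labelled HRD1Alb refed above both fasted ones. *Ddit3* rose from 15.2 ± 0.502 to 246 ± 6.43 normalised CPM (SD, n = 2 each; log2 fold change 4.02, standard error 0.22, adjusted p = 0.00154, edgeR), *Atf4* from 137 ± 24.5 to 256 ± 17.9 (0.90, standard error 0.20, adjusted p = 0.0363), and *Trib3* from 44.0 ± 2.19 to 159 ± 116 (1.85, standard error 0.46, adjusted p = 0.0478). None was called lower (0 at an unadjusted p under 0.05, and 0 by DESeq2 and by limma). Of all tested genes, 5.43% were called higher and 5.05% lower, 10.5% in all. *Atf3* was at 2.31 (95% interval 0.66 to 3.95, adjusted p = 0.0778), or 1.49 and 2.82 without the library labelled HRD1Alb refed replicate 1 or replicate 2 (adjusted p = 0.0751 and 0.0134, edgeR), and *Sesn2* at -0.89 (-2.28 to 0.50, adjusted p = 0.329). The other 5 genes lay between -0.27 for *Cebpb* and 0.40 for *Atf5*.

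The HRD1Alb groups did not overlap in 5 genes that were higher and 1 that was lower after refeeding, against 29.2% and 29.5% of all tested genes. The median log2 fold change was 0.35 over the 10 genes and 0.02 over all tested genes. When the library labelled HRD1Alb refed replicate 1 was left out, the change of *Trib3* was 0.80, with an adjusted p of 0.00256 by edgeR, and that of *Sesn2* was -2.43 (adjusted p = 0.000236), while without replicate 2 they were 2.46 (adjusted p = 0.000335) and -0.17 (adjusted p = 0.6). A fit of the 4 HRD1Alb libraries alone called none of the 10 genes, and with the length correction *Ddit3* was the 1 gene still called higher, at 3.66, with *Cebpb* called lower at -0.73.

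**Figure D4:**
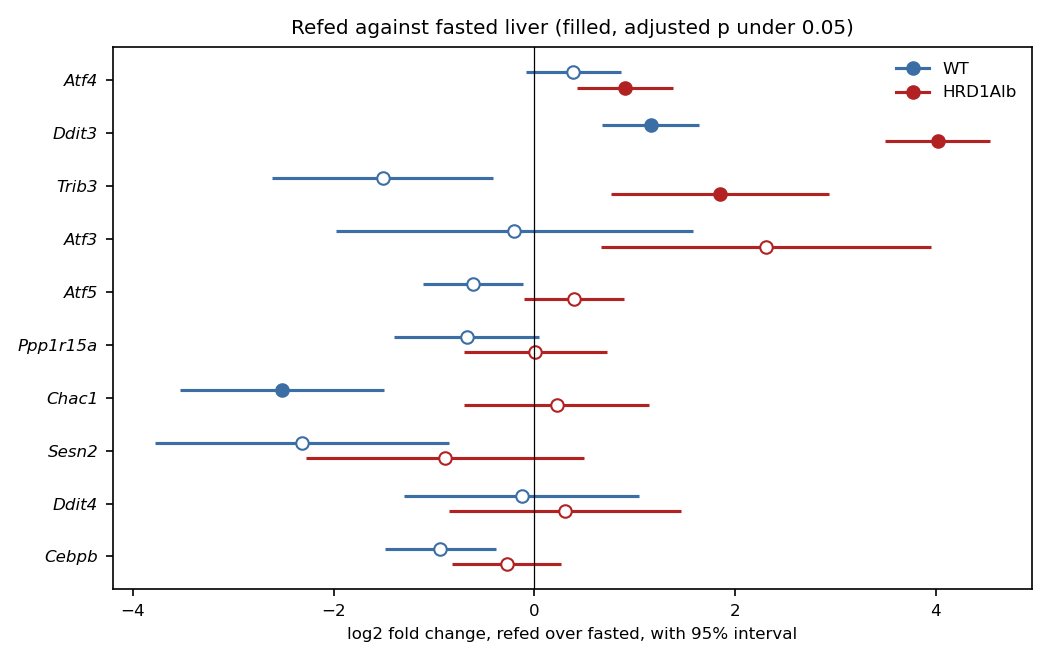
Log2 fold change of refed over fasted liver (x axis) with its 95% interval for each of the 10 genes, in WT (blue) and HRD1Alb (red) liver, with filled points for an adjusted p under 0.05. *Ddit3* is filled in both genotypes, at 1.16 and 4.02, *Chac1* in WT at -2.52, and *Atf4* and *Trib3* in HRD1Alb at 0.90 and 1.85.

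Whether the effect of the genotype differed between refed and fasted liver was tested as the interaction of genotype and feeding. None of the 10 genes passed it, and 0% of the 14328 tested genes did (edgeR). At an unadjusted p under 0.05 there were 5 of the 10 genes and 1209 of all tested genes, DESeq2 called 3 of the 10 and limma 0. *Ddit3* had rank 2 of all tested genes in order of p, with an interaction of 2.86 on the log2 scale (95% interval 2.19 to 3.54, adjusted p = 0.116, edgeR). *Trib3* was at 3.37 (1.82 to 4.91, adjusted p = 0.544), *Chac1* at 2.74 (1.37 to 4.11, adjusted p = 0.544), *Atf3* at 2.51 (0.11 to 4.90, adjusted p = 0.587) and *Atf5* at 1.01 (0.30 to 1.72, adjusted p = 0.561). The interaction was positive in all 10 genes, with a median of 1.22 against 0.03 over all tested genes. Without the library labelled HRD1Alb refed replicate 1, 5 of the 10 genes were called, with 4878 of 14590 genes in all, and without replicate 2, 3 of the 10 were, with 101 of 14642.

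Known targets of ATF4 or CHOP outside the 10 genes were followed with a list of 20. This list was chosen with earlier results of these data known. In refed liver 13 of the 20 were called higher and none lower, against 7.09% and 4.84% of all tested genes. Among these 13, *Slc7a11* and *Phgdh* were at or under the floor of 3 counts in every WT library. They passed the filter on low counts only through HRD1Alb libraries, so their calls add no support. In fasted liver 4 of the 20 were called higher and none lower, against 0.921% and 0.433%. The medians of the log2 fold changes were 2.96 in refed and 1.84 in fasted liver, against 0.04 and -0.02 over all tested genes. The list holds genes of serine and one-carbon metabolism, amino acid transport and secreted stress hormones. *Psat1*, an enzyme of serine synthesis, was at 1.02 and 0.998 normalised CPM in WT fasted, 13.1 and 14.5 in HRD1Alb fasted, 1.04 and 0.893 in WT refed, and 65.0 and 29.0 in HRD1Alb refed (log2 fold change 3.77, adjusted p = 0.0156 in fasted, and 5.60, adjusted p = 0.00273 in refed liver, edgeR). Both HRD1Alb groups were above both WT groups.

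*Fgf21*, a liver hormone of fasting and stress, was at 14.1 and 14.6 normalised CPM in WT fasted, 53.2 and 59.4 in HRD1Alb fasted, 1.53 and 2.21 in WT refed, and 25.6 and 21.9 in HRD1Alb refed. It was higher with HRD1 deletion at both states (log2 fold change 1.97, adjusted p = 0.0156, and 3.67, adjusted p = 0.00148, edgeR) and lower after refeeding in both genotypes (-2.94 in WT, adjusted p = 0.00509, and -1.24 in HRD1Alb, adjusted p = 0.0146). *Nupr1*, a small stress-induced chromatin protein, was at 2.03 and 0.998 in WT refed and at 99.4 and 62.7 in HRD1Alb refed (log2 fold change 5.74, adjusted p = 0.0082). In fasted liver, the mitochondrial enzymes *Aldh1l2* and *Pck2* were also called (3.29, adjusted p = 0.0353, and 2.85, adjusted p = 0.00721). *Slc7a11*, the cystine transporter, had no count in any of the 4 WT libraries and 3.13 and 0.548 normalised CPM in HRD1Alb refed. With the WT level set to the floor of 3 counts per library, this made it at least 24.1-fold higher in refed liver. Without the library labelled HRD1Alb refed replicate 1 it was at least 7.17-fold higher. This bound was not tested, and the adjusted p of 0.0416 (edgeR) belongs to the counts as they stand, with 0 in WT. With *Slc7a11* at this bound the median of the list stayed at 2.96. The other called genes in refed liver, beyond *Psat1*, *Fgf21*, *Nupr1* and *Slc7a11*, included *Asns*, the asparagine synthetase, at 3.47 (adjusted p = 0.00991).

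Without the library labelled HRD1Alb refed replicate 1, 14 of the 20 targets were called higher and 2 lower in refed liver, among 7705 of 14590 genes, and without replicate 2, 15 higher and none lower, among 3466 of 14642. Without either of them 12 of the 20 were called higher in fasted liver, among 3159 and 3118 genes. After refeeding, 4 targets were called higher and 1 lower in HRD1Alb liver, against 5.43% and 5.05% of all tested genes. In WT liver 1, *Fgf21*, was called lower, against 1.41%.

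The genes upstream of ATF4 were a list of 11 genes, the eIF2alpha kinases, eIF2alpha, the eIF2B subunits and the constitutive phosphatase partner *Ppp1r15b*. None was called in either genotype comparison by edgeR. At an unadjusted p under 0.05 there was 1 lower in fasted liver and 1 higher and 2 lower in refed liver, with 1 and 2 called lower by DESeq2 and 0 by limma. *Eif2ak3*, the gene of PERK, had log2 fold changes of 0.47 (adjusted p = 0.497) and -0.34 (adjusted p = 0.468). Leaving out the library labelled HRD1Alb refed replicate 1 brought the refed calls to 6 higher and 5 lower of the 11, in a fit that called 7705 of 14590 genes, and leaving out replicate 2 brought them to 0 and 2, with 3466 of 14642 genes. In fasted liver they came to 1 higher and 2 lower without either one. RNA levels do not show the phosphorylation through which these kinases act.

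Of 12 partners of the bZIP family, *Jund* (log2 fold change 1.79, adjusted p = 0.0126) and *Cebpd* (1.34, adjusted p = 0.0242) were called higher in refed HRD1Alb liver by edgeR and none in fasted liver (unadjusted, 3 higher and 1 lower, with 0 by DESeq2 and 0 by limma). Fits without a library labelled HRD1Alb refed called many more of all tested genes. Their calls are therefore not counted for this list or the lists that follow. Of all tested genes, 7.09% were called higher with HRD1 deletion in refed and 0.921% in fasted liver. Of 11 immediate early genes, which answer quickly to growth factors and stress, *Egr1* (3.27, adjusted p = 0.0446), *Myc* (1.77, adjusted p = 0.0379) and *Btg2* (1.68, adjusted p = 0.0475) were called higher in refed HRD1Alb liver and none in fasted liver (unadjusted, 2 higher, with 0 by DESeq2 and 0 by limma). WT fasted replicate 2 was above replicate 1 in all 11 of them, with *Nr4a1* at 57.6 against 1.65 and *Dusp1* at 73.8 against 12.7 normalised CPM, and *Atf3*, itself an early response gene, was at 3.07 against 0.499 in these libraries. The part of this difference in the fasted comparison of *Atf3* was not tested.

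The other branches of the unfolded protein response, IRE1 with XBP1 and ATF6, raise chaperones and degradation factors and were followed by a list of 15 genes. After refeeding, 6 of the 15 were called higher in WT and 10 of the 15 in HRD1Alb liver, against 1.2% and 5.43% of all tested genes. *Hspa5*, the chaperone BiP, was at 983 and 1022 normalised CPM in WT fasted, 1311 and 1022 in HRD1Alb fasted, 4892 and 2759 in WT refed, and 8635 and 6171 in HRD1Alb refed. The refed groups of *Hspa5* did not overlap, yet the difference did not pass the test (log2 fold change 0.95, adjusted p = 0.0848, edgeR), whereas the refeeding response did in both genotypes (1.93, adjusted p = 0.0338, and 2.67, adjusted p = 0.00752). With HRD1 deletion, 2 of the 15, *Manf* (1.10, adjusted p = 0.0358) and *Pdia6* (0.87, adjusted p = 0.0332), were called higher in refed liver by edgeR, 6 by DESeq2 and 3 by limma, with 7 higher unadjusted. None was in fasted liver (unadjusted, 1 lower, and 1 lower by DESeq2 and 0 by limma).

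The median log2 fold change of these 15 genes between refed HRD1Alb and WT liver was 0.45, that of the 20 ATF4 or CHOP targets 2.96, and that of all tested genes 0.04. Both lists were chosen with earlier results of these data known. The 20 targets include *Slc7a11* and *Phgdh*, at or under the floor in WT, so the medians do not compare like genes. The difference between the lists was not tested. The ERSE motif of the other branches, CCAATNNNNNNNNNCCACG, was in 0.119% of all promoter windows. It was in none of the 11 windows of the 10 genes, which at so low a share says nothing about their branch. The 15 genes of the other branches were not searched for it as a list.

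**Figure D5:**
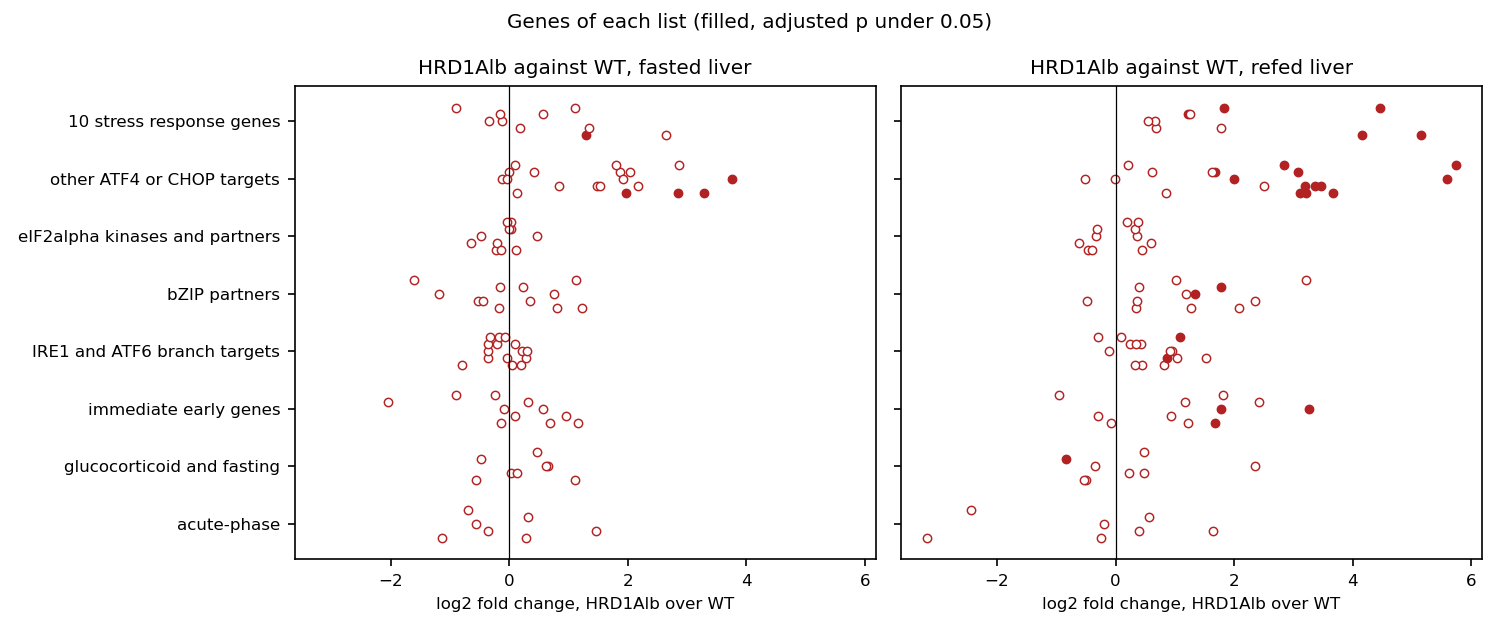
Log2 fold change of HRD1Alb over WT (x axis) for each gene of 8 lists (rows) in fasted (left) and refed (right) liver, with filled points for an adjusted p under 0.05. *Slc7a11*, at 0 in WT, is left out, and in refed liver 5 of the 10 stress response genes and 13 of the 20 other ATF4 or CHOP targets, *Slc7a11* included, were called.

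Genes of glucocorticoid and fasting signals, a list of 8, were followed because *Cebpb*, *Sesn2*, *Ddit4* and *Trib3* respond to fasting too. After refeeding, 3 of the 8 were called lower in WT and 7 of the 8 in HRD1Alb liver, against 1.41% and 5.05% of all tested genes. *Pck1*, the gluconeogenic enzyme, fell by 3.04 in WT and 3.40 in HRD1Alb liver on the log2 scale (adjusted p = 0.00488 and 0.00183, edgeR). With HRD1 deletion, *Pck1* was lower in refed liver (-0.84, adjusted p = 0.0376) and none of the 8 was called in fasted liver (unadjusted, 1 higher and 1 lower, with 0 by DESeq2 and 0 by limma). Of 7 acute-phase genes none was called between the genotypes in either state (unadjusted, 1 lower in fasted and 0 in refed liver, with 0 by DESeq2 and 0 by limma).

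Tested genes whose pattern over the 8 libraries was among the most like that of *Ddit3* were *2610318N02Rik*, *Gadd45a*, *Elfn1*, *Dnahc1*, *Sectm1a*, *Gm3776* and *Lysmd2*. Their root mean square difference from *Ddit3*, in log2 CPM with each gene centred on its own mean, ran from 0.628 to 0.822. *Gadd45a*, a gene of growth arrest and DNA damage, was higher in refed HRD1Alb than in refed WT liver (log2 fold change 2.52, adjusted p = 0.00513, edgeR), and it was also higher after refeeding in WT (1.54, adjusted p = 0.0259). Of the 10 genes, the nearest to *Ddit3* were *Atf3*, at rank 147 of the tested genes with a difference of 1.26, and *Trib3*, at rank 235 with 1.34. *Sesn2* was among the least like it, with 2.60.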

How the data were processed

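Liver RNA of 8 libraries in 4 groups was analysed. The values the authors deposited are raw read counts per gene symbol, 1 file per library, without normalisation. The study's methods name ERANGE for counting and 1 lane of an Illumina NextSeq per library, whereas the submitters' processing notes name cutadapt, STAR, HTSeq, DESeq2 and the build mm10, so which tools made the deposited counts is uncertain. Annotation and strand setting are not given in the sources used here. Totals were 40210576 to 49117080 counts, and the floor of 3 counts covers counting error only.

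Counts were tested in R 4.3.3 with edgeR 4.0.16 (TMM, filterByExpr with minimum count 10 and minimum total 15, 14328 of 23337 genes kept, 1 quasi-likelihood model of the 4 groups). P-values were adjusted by Benjamini-Hochberg over all tested genes and called at 0.05. Standard errors came from the F statistic. Libraries of a group differed beyond sampling noise, so none was a copy or a repeat sequencing of the other. Whether they came from the same mouse or RNA cannot be told from this. Log2 CPM used a prior count of 1. Positions and exonic lengths were from GENCODE M21 (GRCm38), and promoter windows from RefSeq (GRCm38.p6), matched by symbol for all 10 genes.

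All 10 genes are named in every comparison, and of each other list up to 4 called genes with the largest change between genotypes. *Eif2ak3*, *Hspa5* and *Asns*, and the values of *Gadd45a*, *Mars*, *Tmem189*, *Nr4a1*, *Dusp1* and *Mpo*, were chosen after their values were seen. Of the 8 genes with the pattern most like *Ddit3*, 1 is not reported here. The members and lists were chosen with earlier results of these data known. Alternatives were RLE factors, DESeq2 1.42.0, limma 3.58.1 (limma-trend), no filter, the contrast's libraries alone, a replicate block, a length correction (lowess span 0.4), both, and each library left out. The counts of the ATF4 or CHOP target and eIF2alpha lists, and the *Slc7a11* bound, without each library labelled HRD1Alb refed were added after seeing the data. No batch is labelled. Steps were tested on simulated data, and figures were drawn with matplotlib 3.10.9.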

Additional observations from a re-analysis of the deposited data

Results flagged for a closer look

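In *Trib3*, both refed WT libraries lay below both fasted ones, whereas both refed HRD1Alb libraries lay above both fasted ones, and the difference between the 2 refeeding effects was 3.37 on the log2 scale (interaction, edgeR, adjusted p = 0.544). *Chac1* was lower in both HRD1Alb than in both WT libraries in fasted liver and higher in refed liver, a difference of 2.74 (adjusted p = 0.544, edgeR). *Atf5* went opposite ways both for HRD1 deletion between fasted and refed liver and for refeeding between WT and HRD1Alb liver, and the difference was 1.01 in either case (adjusted p = 0.561, edgeR). None of the differences passed the test. Opposite movement of this kind occurred in 816 of the 14328 tested genes (5.7%) for HRD1 deletion and in 747 (5.21%) for refeeding.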

How the results depend on the processing

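The number of the 10 genes called in fasted liver (1) was 2 by DESeq2 and with the contrast's libraries alone, and 0 to 4 with a library left out. In refed liver (5) it was 8 by DESeq2, 0 with the contrast's libraries alone and 1 to 9 with a library left out. For refeeding in WT (2) it was 5 by DESeq2 and with the contrast's libraries alone and 0 to 5 with a library left out, and for refeeding in HRD1Alb (3) it was 0 with the contrast's libraries alone, 1 with the replicate block and length correction together and 1 to 4 with a library left out. For the interaction (0) it was 3 by DESeq2, 1 without a filter and 0 to 5 with a library left out. RLE factors changed no count. The causes were not tested. Libraries that share a replicate number had deviations from their group means with correlations from 0.0161 to 0.179. All were positive, but not all were over 0.1. With 2 libraries in each group, these values cannot tell whether libraries with the same replicate number share more than that number. Adding this number as a replicate block gave 1, 6, 2, 2 and 0 calls in the order above.

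No change that turned direction passed the test in either fit. By limma-trend, refeeding in WT came to 0.31 for *Atf3* and 0.076 for *Ddit4*, and refeeding in HRD1Alb to -0.016 for *Ppp1r15a*. With the replicate block, *Ddit4* came to 0.035 for refeeding in WT. With the length correction, refeeding in HRD1Alb came to -0.14 for *Ppp1r15a* and -0.11 for *Chac1*, and with the block as well to -0.13 for *Ppp1r15a*, -0.062 for *Chac1* and -0.14 for *Ddit4*, whose interaction also came to -0.14. With a library left out, the fasted genotype change ranged from -0.021 to 0.34 for *Atf4*, from -0.38 to 0.19 for *Ppp1r15a* and from -0.29 to 0.0080 for *Sesn2*, and the refed one from -0.28 to 1.98 for *Sesn2*. Refeeding in WT ranged from -0.98 to 1.66 for *Atf3* and from -0.69 to 0.89 for *Ddit4*, and refeeding in HRD1Alb from -0.40 to 0.32 for *Ppp1r15a*, from -0.12 to 0.67 for *Chac1* and from -0.24 to 0.69 for *Ddit4*. The interaction ranged from -0.11 to 2.14 for *Sesn2* and from -0.59 to 0.99 for *Ddit4*. A lone library of a group was assumed to vary like the others. Of the gene values under the other settings, 341 kept their direction and side of the threshold, 21 gained a call, 18 lost one and 10 turned, and with a library left out these numbers were 307, 31, 46 and 16.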
